A study of Drosophila melanogaster with 4 samples.

Results

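Isolated single Broad peaks are sites where signal for the transcription factor Broad stood alone on a large autosome arm of Drosophila melanogaster. They were chosen from the list of ChIP-seq peaks that the authors deposited for the series. A peak of arm 2L, 2R, 3L or 3R was taken if no other peak lay within 5000 bp, edge to edge, and if it was narrower than 1500 bp. Midpoints in the centromere-proximal ends of the arms were left out, which are 2L from 20 Mb, 2R below 2 Mb, 3L from 22 Mb and 3R below 2 Mb. The rule found 697 peaks among the 5171 of the whole list, and among the 3758 of these arms outside the proximal ends (18.5%, 95% Wilson interval 17.3 to 19.8%). They are called isolated peaks below.

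The series held 4 samples, 2 ChIP libraries and 2 Input libraries made from total genomic DNA, all from embryos aged 0 to 8 h of the strain Y cn bw sp and of unknown sex. Every sample carried the same genotype, with oc[R3.2] beside y[1] on one chromosome, bw[1], cn[1], sp[1], Gr22b[1], Gr22d[1] and CG33964[R4.2] on another, and Rh6[1], GstD5[1], LysC[1], MstProx[1] and lab[R4.2] on a further one. There was thus no group of another genotype to set beside them. Embryos were cross-linked in 1.8% formaldehyde for 15 min, and ChIP used br-core, a rabbit polyclonal antibody against the region that the Broad isoforms share. Whole embryos mix many cell types, and a peak does not say in which of them Broad was bound. The protocol speaks of egg laying at a later time than that stage, and the age used here is that of the sample labels. The list holds 1 position and 1 score for each peak and no value of a single library. No result below therefore carries a replicate error, and the depth of each library is unknown.

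Broad is made from the gene br (Broad-Complex) in several isoforms, which share a BTB domain, through which such proteins pair, but differ in the zinc fingers with which they bind DNA. It is best known as an early target of the moulting hormone ecdysone: the hormone's receptor switches br on, and Broad in turn acts on later genes of the response, above all at the start of metamorphosis. In ChIP-seq, DNA bound to the protein is recovered with the antibody and sequenced, and a peak caller marks stretches where more fragments pile up than the background predicts.

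The choice of members used the position and width of peaks, and the score comes from the same set of ChIP and Input libraries. Values of score, width and spacing are therefore given as a description, without a test. Positions are those of FlyBase release 5, 1-based, and regions are named by coordinates, since no gene annotation or genome sequence of that release was used here.

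A typical isolated peak was of middling score and width, with the width capped by the rule. The authors' score, read as −log10 of a peak's p-value, had a median of 14.2 (quartiles 10.7 and 19.7) over the 697 isolated peaks and ran from 6.7 to 122.08. Over the 2730 other peaks under 1500 bp of the same arms, which had a neighbour within 5000 bp, the median was 13.0 (quartiles 10.3 and 17.6). The exact binomial 95% interval of the median, which covers the counting of peaks only, was 13.6 to 14.6 for isolated peaks and 12.7 to 13.3 for the other peaks. Isolated peaks thus lay slightly higher. The median width was 478 bp (quartiles 293 and 808 bp) for isolated peaks and 405 bp (quartiles 268 and 672 bp) for the other peaks, so they were also wider. Of the isolated peaks 104 (14.9%) were 1000 bp wide or more, against 10.5% of the others, while 182 (26.1%) were under 300 bp wide, against 31.7% of the others. In all, 170 isolated peaks (24.4%, Wilson 21.3 to 27.7%) scored 20 or more. This was more than among the other peaks under 1500 bp (17.9%, Wilson 16.6 to 19.4%) and close to the 25.6% of all 3758 peaks of these arms, wide ones included. The other peaks were not alike in this. The 418 with a nearest peak 2 to 5 kb away were close to isolated peaks, with a median score of 13.8, a median width of 493 bp and 25.6% at 20 or more. These values were 13.3, 450.5 bp and 17.6% at 1 to 2 kb, and 12.1, 340.5 bp and 12.5% at 0.5 to 1 kb. Up to 0.5 kb, where 1812 of the others lay, they were 13.1, 398 bp and 17.2%. The 331 peaks of 1500 bp or more, which the rule bars, had a median score of 33.6. Over all 3758 peaks of these arms, wide ones included, the median score was 13.97 and the median width 464.5 bp.

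**Figure D1:**
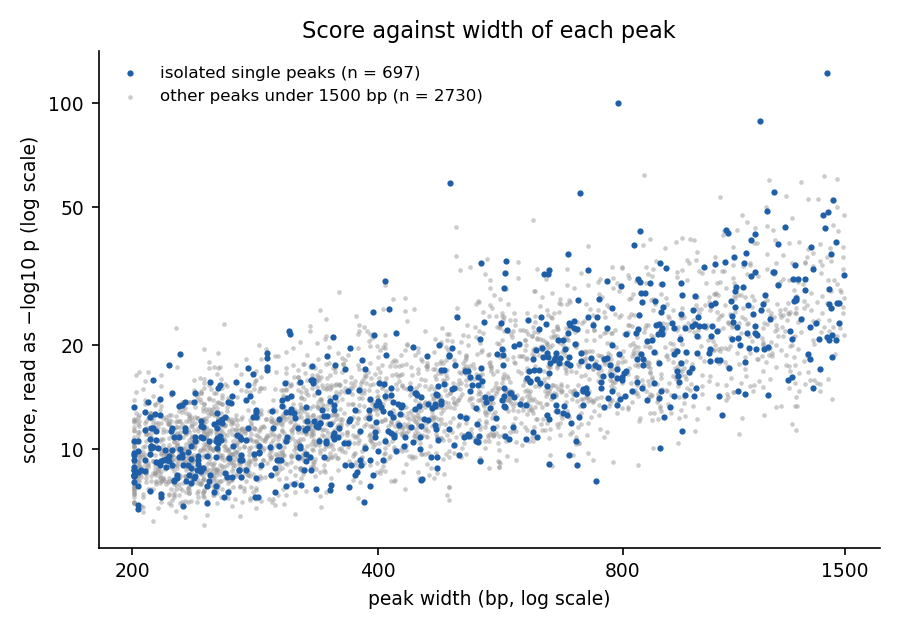
Each point is 1 peak, with its width in bp on the x axis and its score, read as −log10 p, on the y axis, both on log scales. Isolated single peaks (blue, 697) lie among the other peaks under 1500 bp (grey, 2730) over most of the range, and 3 isolated peaks stand above all grey points, at scores of 122.08, 100.52 and 89.12.

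The higher median score of isolated peaks went with their width. Score rose with width in both sets, with a Spearman rho of 0.767 over the isolated peaks and 0.726 over the others, a description across peaks whose width and score come from the same call. Peaks were therefore set side by side in 13 classes of 100 bp. In the narrowest class, 200 to 299 bp, the median score was 9.90 for 182 isolated peaks and 10.0 for 866 others. In the class of 400 to 499 bp it was 13.4 for 77 isolated peaks and 13.0 for 300 others, and at 1000 to 1099 bp it was 23.1 for 26 isolated peaks and 23.0 for 75 others. Isolated peaks had the higher median in 7 classes and the lower one in 6. The widest gaps in their favour were 3.5 at 800 to 899 bp, with medians of 21.5 and 18.0, and 4.15 at 1200 to 1299 bp, with medians of 28.3 and 24.2 over 16 isolated peaks and 65 others. Each isolated peak's score minus the median of the other peaks of its class had a median of 0.18 (exact binomial 95% interval -0.13 to 0.54), and 364 of the 697 (52.2%, Wilson 48.5 to 55.9%) lay above that median. At a given width, the interval of the difference included 0, which does not show that the scores are alike. This interval takes the class medians of the other peaks as fixed numbers and is thus too narrow.

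**Figure D2:**
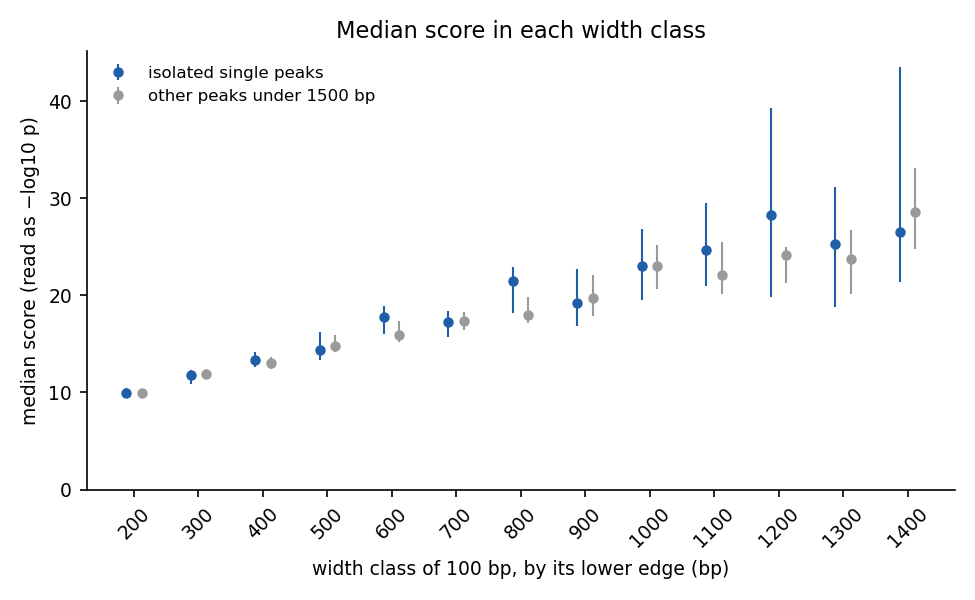
Median score, read as −log10 p, is plotted for each width class of 100 bp, named by its lower edge in bp, for isolated single peaks (blue) and other peaks under 1500 bp (grey). Bars are exact binomial 95% intervals of the median, and the blue points lie above the grey ones in 7 of 13 classes.

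The isolated peaks with the highest scores were among the highest of these arms. The first, 2R:14525615-14527037, scored 122.08 over 1423 bp and ranked 3 among all 3758 peaks. Its neighbours lay 22802 bp to the left and 20353 bp to the right, with scores of only 8.78 and 16.78. The second, 3R:14973252-14974040, scored 100.52 over 789 bp and ranked 5. It lay 50806 bp from its left neighbour and 7999 bp from its right one. The third, 2L:19864868-19866047, scored 89.12 over 1180 bp and ranked 9, with gaps of 68808 and 194058 bp. No other isolated peak was among the first 20 of these arms, of which the remaining 17 were 1500 bp wide or more. Of those 17, 13 had another peak within 5000 bp, and the rest stood alone but were too wide for the rule.

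Below these came a step down in score. The fourth, 3R:21463114-21463604, scored 58.82 over 491 bp, and the fifth, 2L:14308090-14309314, scored 55.55 over 1225 bp. The highest isolated peak of 3L was 3L:18178654-18179361, with 54.94 over 708 bp. The others of the first 10 were 2R:9020268-9021717 at 52.5, 2L:9448770-9449972 at 48.69, 3R:10141354-10142781 at 48.65 and 3R:26213230-26214637 at 47.49, all between 1203 and 1450 bp wide. Arms 2L and 3R thus held 3 and 4 of the first 10, 2R held 2 and 3L held 1.

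Among peaks under 1500 bp, isolated ones were more frequent at the top of the ranking than in the list. They made up 20.3% of the 3427 such peaks of these arms, but 5 of the first 10 by score, 9 of the first 20, 18 of the first 50 and 31 of the first 100. The highest score of a peak under 1500 bp with a close neighbour was 62.09, at 3R:25597850-25598698. This excess is the upper end of the same distributions and adds no separate evidence.

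A few isolated peaks had scores far above those of other peaks of their width. The peak 3R:14973252-14974040 had 5.77 times the median of the other peaks of its width class, 3R:21463114-21463604 4.51 times and 2R:14525615-14527037 4.28 times. The peak 2L:19864868-19866047 had 4.03 times that median and 3L:18178654-18179361 3.16 times. These 5 were also among the first 6 by score, and were picked after their values were seen. A score of at least 2 times the median of the class was found for 18 isolated peaks (2.58%) and for 40 of the 2730 others (1.47%).

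At the other end, the 5 lowest scores lay between 6.7 and 7.05. The lowest was 3L:21439370-21439572, at 6.7 over 203 bp, followed by 3L:9608197-9608427 at 6.86, 3L:604211-604413 at 6.91, 3L:1166649-1166895 at 6.97 and 2L:4837700-4838084 at 7.05. All were narrower than 400 bp, and 4 of the 5 lay on 3L. The widest isolated peaks scored well below the strongest ones: 2R:10390744-10392236 (1493 bp) had 31.92, 3L:19591356-19592830 (1475 bp) 23.14, 3R:24947766-24949237 (1472 bp) 26.44, 3L:871922-873386 (1465 bp) 26.52 and 3R:20769891-20771353 (1463 bp) 39.79. Just outside the width limit stood 2R:11878810-11880310 (1501 bp), with a score of 39.63, 2R:13676507-13678012 (1506 bp), with 21.47, and 3R:25541754-25543261 (1508 bp), with 71.87. Just inside the distance limit, 2L:6717705-6717960 had its nearest peak 5018 bp away and a score of 10.9. Just outside it, 3R:4059634-4060211 had one 4989 bp away and a score of 12.92.

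Most isolated peaks were not remote. The gap to the nearest other peak had a median of 12.9 kb (quartiles 8.10 and 25.3 kb), and 262 isolated peaks (37.6%) had one between 5 and 10 kb away. The gap on the farther side had a median of 48.4 kb. It was, at the median, 2.68 times the gap on the nearer side. A gap of more than 50 kb on both sides was found for 65 isolated peaks (9.33%), and of more than 100 kb for 14. Of the isolated peaks 2 were the outermost of their arm and had a neighbour on 1 side only, among them 3L:22916-23231, which is counted here with its single gap of 108310 bp.

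The remotest isolated peak was 2R:15884699-15885678, with a score of 27.77 over 980 bp and gaps of 270454 and 264014 bp. It was followed by 3L:10217906-10218312, with a score of 15.44 and gaps of 252359 and 291074 bp, and by 2L:15499756-15500201, with a score of 14.56 and gaps of 224552 and 243222 bp. Next were 3L:7719148-7719491 at 12.51 and 3R:22362268-22362840 at 13.26, with nearest peaks 183718 and 179978 bp away. Apart from the first, these remote peaks had scores close to the median of all isolated peaks.

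Neither score nor width followed distance within the isolated peaks. The median score was 14.2 for the 262 isolated peaks with a nearest peak 5 to 10 kb away, 14.3 for the 213 at 10 to 20 kb, 14.0 for the 157 at 20 to 50 kb and 14.0 for the 65 beyond 50 kb. Median widths in these classes were 492.5, 451, 522 and 473 bp. Over the 697 isolated peaks the Spearman rho of the nearest gap was 0.00032 with score and 0.014 with width. Scores of at least 20 made up 25.6, 20.2, 27.4 and 26.2% of the 4 classes in turn, again without a trend.

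What differed with distance was the background against which a peak had been scored. Of all 5171 scores, 1137 (22.0%) equalled, to 2 decimals, the −log10 tail probability of a whole number of fragments under a Poisson mean of 49.75. MACS, the caller named in the list, uses the mean of the whole genome for a peak unless the mean of its surroundings is higher. Peaks with a matching score are read as scored in that way and are called floor peaks here. The list names no background mean for a single peak. Among the isolated peaks 130 of 697 were floor peaks (18.7%, Wilson 15.9 to 21.7%), against 222 of the 2730 other peaks under 1500 bp (8.13%, 7.16 to 9.22%), a difference of 10.5 percentage points. Over all 3758 peaks of these arms, wide ones included, 378 were floor peaks (10.1%). The 22.0% of the whole list includes X, where the share was far higher. With 200 other means between 40 and 49, which stand for accidental matches, on average 2.65% of the isolated peaks and 2.72% of the others matched, and at most 5.31% and 4.10%. The higher share held in 13 of 13 width classes, but some classes held few floor peaks. At 1400 to 1499 bp it was 1 of 19 isolated peaks against 1 of 38 others. Neighbouring peaks share their surroundings, so the intervals are too narrow.

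The share of floor peaks was higher the farther the nearest peak lay. It was 8.40% (22 of 262) at 5 to 10 kb, 16.9% (36 of 213) at 10 to 20 kb, 31.2% (49 of 157) at 20 to 50 kb and 35.4% (23 of 65) beyond 50 kb. Peaks with a neighbour within 5 kb showed no such order, at 8.22% up to 0.5 kb, 12.5% from 0.5 to 1 kb, 6.38% from 1 to 2 kb and 5.26% from 2 to 5 kb. Isolated peaks with a nearest peak 5 to 10 kb away thus had a share like that of grouped peaks. At 5 to 10 kb and at 20 to 50 kb the shares were 8.33 and 25.8% on 2L, 2.86 and 23.3% on 2R, 12.9 and 41.0% on 3L, and 9.46 and 34.1% on 3R, higher at the longer distance on each arm. Beyond 50 kb it was higher again on 2L, 2R and 3R (35.3, 44.4 and 43.8%) but lower on 3L (26.1%), with 9 to 23 peaks an arm.

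**Figure D3:**
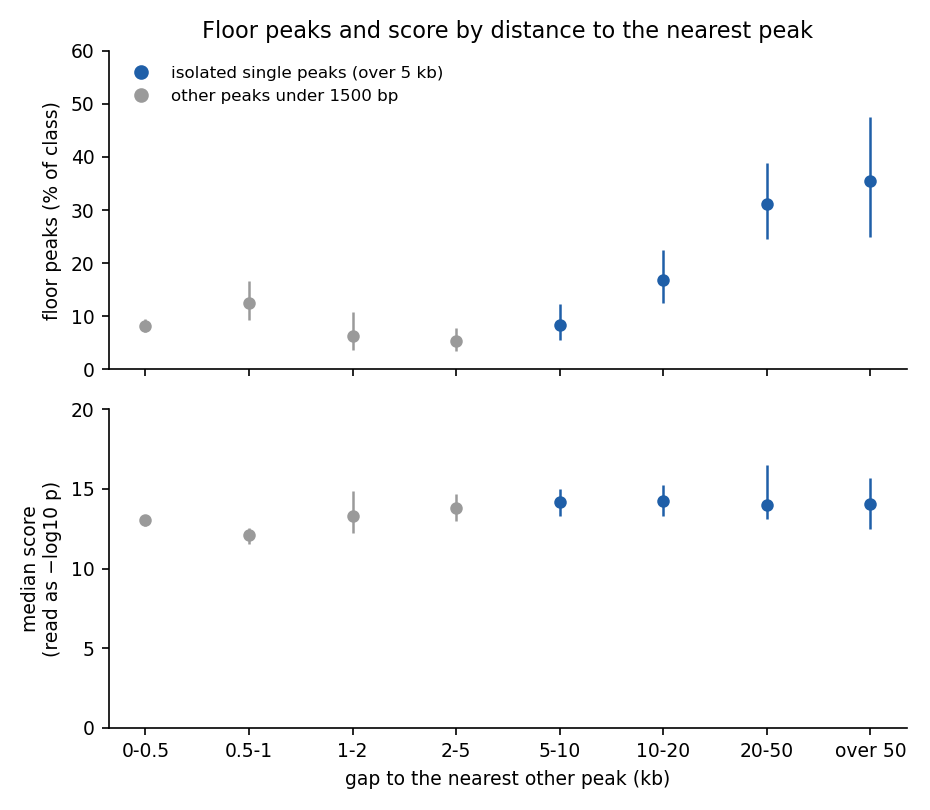
Peaks under 1500 bp are classed by the gap to the nearest other peak in kb (x axis, classes of unequal width). The upper panel gives the share of floor peaks in percent with Wilson 95% intervals and the lower panel the median score, read as −log10 p, with exact binomial 95% intervals. Isolated single peaks (blue) go from 8.40 to 35.4% in the upper panel and stay between 14.0 and 14.3 in the lower one, and grey points are the other peaks.

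The share also followed the number of peaks in the wider surroundings, in both sets. With 1 or 2 other peaks within 50 kb of the midpoint, 38 of 126 isolated peaks were floor peaks (30.2%), against 53 of 202 others (26.2%). With 3 to 5 around, the shares were 18.9% (43 of 228) for isolated peaks and 10.1% (63 of 625) for the others. With 6 to 10 they were 11.5% (22 of 191) and 7.42% (81 of 1092), and with 11 or more 3.53% (3 of 85) and 3.08% (25 of 811). With no peak within 50 kb, 24 of 67 isolated peaks (35.8%) were floor peaks. Set beside other peaks with as many peaks around, isolated peaks thus had a share higher by 3.92, 8.78, 4.10 and 0.447 percentage points, in order of rising numbers around. Only in the class of 3 to 5 did the intervals not overlap (14.3 to 24.4% and 7.96 to 12.7%). The median score of isolated peaks was 14.0 with none around, 13.8 with 1 or 2, 14.3 with 3 to 5, 14.6 with 6 to 10 and 13.3 with 11 or more.

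**Figure D4:**
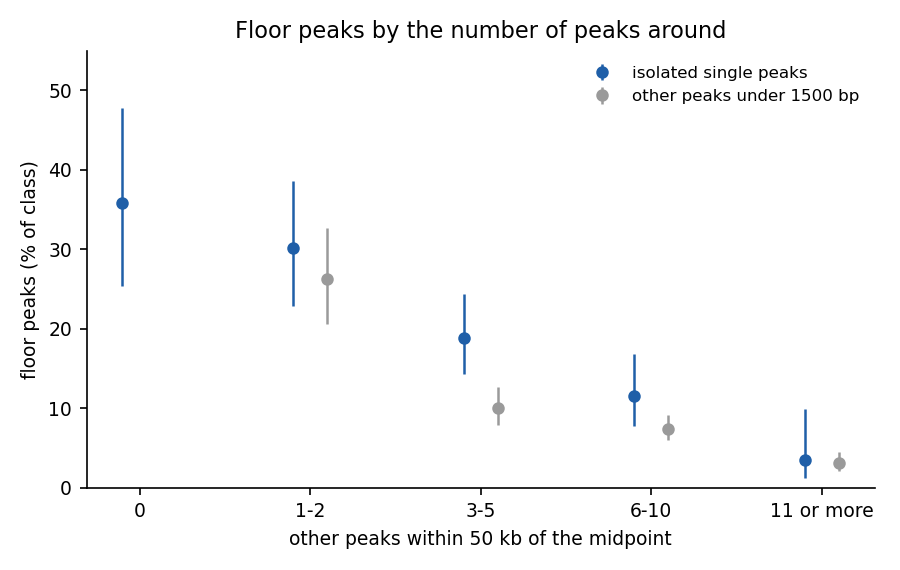
The share of floor peaks in percent (y axis, Wilson 95% intervals) is plotted by the number of other peaks within 50 kb of the midpoint (x axis). In both isolated single peaks (blue) and other peaks under 1500 bp (grey) it is lower where more peaks are around, down to 3.53% and 3.08% with 11 or more.

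For a floor peak the score can be turned back into a pileup, as long as its match is not accidental. At the average rate of the other means, 18.45 of the 130 isolated and 74.2 of the 222 other floor peaks would match by accident, and these could not be told from the rest, so the pileups below are approximate, above all those of the other peaks. The 130 isolated floor peaks had a median pileup of 110 overlapping fragments, 2.21 times the mean of 49.75 (quartiles 2.02 and 2.47), and the 222 other floor peaks had 107.5 fragments, 2.16 times that mean (quartiles 1.99 and 2.35). The range over isolated floor peaks went from 91 to 248 fragments, 1.83 to 4.98 times the mean. The highest was 2L:19864868-19866047 with 248 fragments, followed by 3L:8307417-8308655 with 168, and by 2R:14706939-14707474 and 2L:15067061-15068187 with 159 each. For peaks that are not floor peaks the same reading is an upper bound on the fold over the mean used for scoring. With that bound, 642 isolated peaks (92.1%) lay at 3-fold or less, and 95.3% of the other peaks under 1500 bp did. Isolated floor peaks lay farther from their nearest peak than the other isolated ones, with median gaps of 23978.5 and 11597 bp, and their median scores were 13.3 and 14.2. Pileups may be off by 1 fragment, depending on how the caller counts the tail.

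All 4 arms carried isolated peaks in like proportion. There were 193 on 3R, 187 on 3L, 180 on 2R and 137 on 2L, which is 17.3% of the peaks of 3R outside its proximal end, 20.0% of those of 3L, 19.6% on 2R and 17.4% on 2L. The Wilson intervals of these shares overlap (15.2 to 19.7%, 17.5 to 22.6%, 17.2 to 22.3% and 14.9 to 20.2% in the same order). The median score was 14.3 on 3R, 14.5 on 3L, 13.5 on 2R and 14.1 on 2L, and the median width 511, 473, 507 and 446 bp. Floor peaks were 21.8% of the isolated peaks of 3R, 23.0% on 3L and 18.2% on 2L, but 11.1% on 2R (20 of 180, Wilson 7.31 to 16.5%). Among the other peaks under 1500 bp, 2R also had the lowest share, at 6.28% (Wilson 4.66 to 8.41%). It was 8.59% on 3R (6.85 to 10.7%), 7.61% on 3L (5.85 to 9.85%) and 10.2% on 2L (7.98 to 12.9%). These intervals all overlap that of 2R, and 3L was not the highest arm there. For the isolated peaks of 3L, the highest share, the interval was 17.5 to 29.5%. The lowest and highest arm were picked after their values were seen, and the intervals are too narrow. The difference between arms was not tested.

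Along the arms, isolated peaks were found nearly everywhere. Of 88 bins of 1 Mb, 87 held at least 1, with a mean of 7.92 ± 3.31 per bin (SD over bins), a median of 8 and a maximum of 18. The bin without any, 2R 21 to 22 Mb, held 2 peaks in all. It was the last bin of 2R, and a bin at an arm's end may cover less than 1 Mb of sequence, which was not corrected for. The other peaks ranged from 2 to 76 per bin, with a median of 34.5. Isolated peaks were somewhat more frequent where other peaks were, with a Spearman rho of 0.343 over the 88 bins (0.174 to 0.425 within single arms). This is a description without a test, since a crowded bin leaves less room for isolation. Sequence content and background of the bins, which peaks of both kinds may share, were not measured.

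Some bins stood out. The highest count was at 3L 0 to 1 Mb, where 18 of 44 peaks were isolated (40.9%), and the highest share at 2R 20 to 21 Mb, with 14 of 27 (51.9%). The lowest share in a bin of at least 10 peaks was at 3R 6 to 7 Mb, with 1 of 29 (3.45%). The most crowded bin, 2L 10 to 11 Mb, had 9 isolated peaks among 85 (10.6%).

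**Figure D5:**
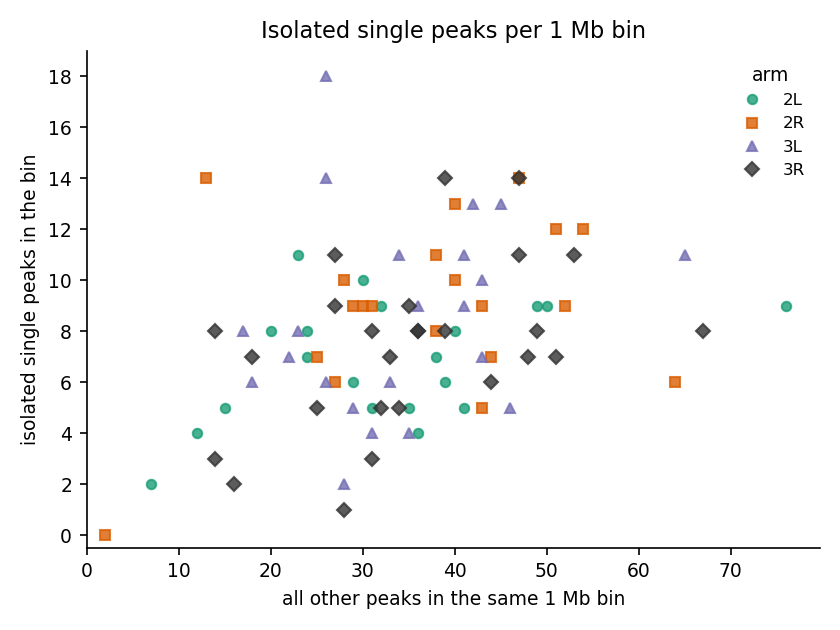
Each point is 1 bin of 1 Mb, with the number of all other peaks in it on the x axis and the number of isolated single peaks on the y axis, marked by arm. Isolated peaks run from 0 to 18 per bin, and the point at 18 is the bin of 3L at 0 to 1 Mb.

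The kind of peak nearest to an isolated peak was counted next. The nearest peak was itself an isolated single peak for 274 of the 697 (39.3%), part of a run of 2 to 4 peaks for 316 (45.3%), part of a run of 5 or more for 65 (9.33%) and an isolated peak that the rule leaves out for 42 (6.03%). A run here is a chain of peaks in which each gap is 5 kb or less, and runs of 5 or more held 974 peaks of these arms (25.9%). That is a share of peaks and not of runs, so it is no base for the 9.33%. Counting each run as 1 site, these arms had 1718 sites, of which 929 were runs of 2 or more peaks. The 697 isolated peaks made up 40.6% of the sites, close to the share of isolated peaks whose nearest peak was of their own kind. Runs of 2 or more, 929 of 1718 sites, were likewise nearest to isolated peaks about as often as their number among the sites.

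In their order along the arms, 262 of the 697 stood between peaks of other kinds, while 190 came as 95 consecutive pairs and 120 as 40 consecutive triplets, and the others in longer rows. These counts are a description and were not set against another order of the same sites. The longest rows had 8 isolated peaks with no other peak between them, at 3R:17431518-17651882 over 220 kb and at 2R:20289363-20495493 over 206 kb. Scores in both were low: the row on 3R had a median of 8.7 and a highest score of 17.29, and the row on 2R a median of 9.72 and a highest score of 26.2. The 2 rows of 6 had medians of 11.42 at 3R:19076352-19173129 and 11.575 at 3L:681350-749991. The 9 rows of 5 had higher medians, from 12.35 at 3L:13405801-13870868 to 22.87 at 3L:11985763-12118311. A row of 4 on 2L:8996878-9331577 consisted of floor peaks only, with scores from 9.3 to 30.64.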

How the data were processed

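A single peak list, deposited by the authors, covers the 4 samples, in FlyBase release 5 coordinates per the file headers, with MACS as its source field. The submitters' processing notes name CASAVA (1.7.0.2 and 1.7.0.3), BWA, MACS2 and build BDGP5. Settings for mapping and calling, and any pooling of libraries, were not given in the sources used here. The authors left the deposited score unnamed, and it was taken as a −log10 p-value because many scores fell on Poisson tail probabilities of whole numbers at 1 mean, found by a scan of means between 10 and 120 (step 0.01, refined at 0.001). For the remaining scores the same unit was assumed, which was not tested peak by peak.

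Members, groups, classes and limits were chosen with earlier results of these data known. Named peaks are the 10 highest scores, the highest of each arm, the 5 widest, remotest and lowest, and those nearest the limits of the rule. Peaks high for their width, floor peaks, rows and bins were picked after their values were seen. Wilson and exact binomial intervals (95%) cover the counting of peaks only. The scan and the isolation rule were checked on simulated data. Scripts ran under Python 3.11.15 with pandas 2.3.3, scipy 1.17.1, numpy 2.4.6 and matplotlib 3.10.9. Gene positions, gene lists, GC content and sequence words had been planned for an annotation and genome of release 5 and were not analysed here. Alternatives covered the neighbour distance, width limit, arm ends, peaks kept, joining of peaks, single arms, the background mean, the score threshold and the width classes.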

Additional observations from a re-analysis of the deposited data

How the results depend on the processing

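Over 18 alternatives, 59 of 84 values stayed within the interval of the value reported (counts, within 1.5 times) and 25 did not. The distances, widths, joining and the cut to the top 50% of peaks by score change the members by construction. That cut removes the lower scores before isolation is judged, so the higher scores in that setting follow from it. The number of isolated peaks, 697, was 1115 with a neighbour distance of 2000 bp and 435 with 10000 bp. Their share of all peaks, 18.5%, was 29.7 and 11.6% at these distances, 15.8% with widths below 1000 bp, 21.0% with no width limit, 37.2% with the top 50% of peaks by score and 37.6% with peaks under 1000 bp apart joined. The median score, 14.2, was 13.2 below 1000 bp, 15.1 with no width limit and 19.2 with the top 50%. The median width, 478 bp, was 412, 568 and 745 bp in these settings and 632.5 bp with peaks joined. The share of floor peaks, 18.7%, was 13.6% at 2000 bp, 24.8% at 10000 bp, 13.7% with the top 50%, 6.17% with the next best mean of 101.49, and 24.5% when scores within 0.01 were accepted, which also admits more accidental matches. The share with a score of 20 or more, 24.4%, was 15.0% below 1000 bp, 31.9% with no width limit and 45.6% with the top 50%, and with thresholds of 15 and 30 it was 44.8 and 7.89%. The width-matched difference in score, 0.18, stayed above 0 in 13 of 13 alternatives (0.02 to 0.38), and its interval included 0 in 12. With peaks joined it was 0.38 (0.10 to 0.68), in an interval that is too narrow because the class medians are taken as fixed. Leaving out any 1 arm, or keeping the arm ends, moved no value out of its interval. The acceptance within 0.01 and midpoint distances were added after the data were seen. No paired analysis was possible because libraries are not listed separately, so leaving out single replicates could not be done either. Alternatives for sequence and gene position were not run.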

Other observations

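Some peaks stood alone but outside the rule. On X, 162 of 727 peaks (22.3%, Wilson 19.4 to 25.5%) met the same limits of distance and width. Their median score was 12.8 and their median width 429.5 bp. Floor peaks were 72.2% of them, against 62.1% of the 530 other peaks of X under 1500 bp, and 18.7% of the isolated peaks of the autosome arms. The 92 isolated peaks of 1500 bp or more on the autosome arms had a median score of 33.4, with a highest of 92.46, and 9 of them (9.78%) were floor peaks. In the proximal ends of the arms, 58 of 415 peaks (14.0%) were isolated and narrower than 1500 bp, with a median score of 15.8 (exact binomial 95% interval 13.5 to 17.9) and 13 floor peaks (22.4%, Wilson 13.6 to 34.7%), intervals that overlap those of the isolated peaks inside the rule. On chromosome 4, 9 of 74 peaks (12.2%) were, with a median score of 12.3 (9.1 to 21.4).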
